A study of Drosophila melanogaster with 3 samples.

Results

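The 10 genes described here belong to the ecdysone response and the nuclear receptor family, of 13945 protein-coding genes on the 6 chromosome arms. They were taken by symbol, with earlier results of these data known: EcR, usp, Eip74EF, Eip75B, br, ftz-f1, Hr39, Hr4, Hnf4 and ERR. Binding was read from chromatin immunoprecipitation and sequencing of whole Drosophila melanogaster embryos of mixed sex, aged 0 to 18 hours. All embryos came from 1 transgenic line in which green fluorescent protein is fused to the C terminus of Nf-YC, a histone-fold subunit of the CCAAT-binding factor NF-Y, and an antibody against the tag was used. What drives expression of the fusion is not stated in the labels, and no untagged embryos were analysed here. There were 3 biological replicates in 1 group, with no second condition. No difference between conditions was therefore tested.

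Ecdysone is the steroid hormone that times moulting and metamorphosis in insects, and a pulse of it also occurs in the embryo. It binds a heterodimer of 2 nuclear receptors, EcR and its RXR-type partner usp. The bound receptor switches on early response genes, among them Eip74EF, Eip75B and br, whose products regulate later genes of the cascade. Other nuclear receptors act further along it or in metabolism. Many of these genes are long and use alternative promoters, so the position of a peak relative to each start site matters.

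The data are lists of peaks. Each peak has a summit, the base of highest enrichment, and a signal, a score of the authors' caller without a stated unit. The main set of 7476 peaks was thresholded by the irreproducible discovery rate and held the strongest peaks of the pooled list. Each replicate list held 30000 peaks, and its median signal was 61.6, 45.3 and 29.0 in replicates 1, 2 and 3. Signals were not scaled between lists, so an SD over replicates also holds differences in scale. Ranks by signal within a list are given beside them. The files hold no read counts and depth is unknown. In whole embryos, binding in fewer cells and weaker binding per cell cannot be told apart.

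A gene owned a peak here when a thresholded summit lay inside it or within 5 kb of it. By this rule, 74 of the 7476 summits belonged to the 10 genes, 59 inside a gene and 15 in a flank. Summits of overlapping peaks were counted separately, at these genes and at all others. All 10 genes had at least 2 such summits, as did 5039 of the 13945 protein-coding genes, and 56.5% of all had at least 1. Among genes of 50 to 130 kb with flanks, where 6 of the 10 fall, 75.6% had at least 1. The outermost flank summit counted was 4537 bp from br, and the nearest left out was 7980 bp from usp. A promoter was a cluster of start sites of a gene, merged within 100 bp, and was bound when a thresholded summit lay within 500 bp. The 10 genes had 35 promoters, each named below by its transcripts (RA, RB and so on).

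CCAAT, the pentamer that NF-Y is known to bind, lay wholly within 10 bp of the summit at 4 of the 74 peaks (5.41%), against 4.32% of all thresholded summits. The distance of 10 bp was chosen after these values were seen. The 4 sites are shown because they place the pentamer under the summit itself. They are written 5′ to 3′ on the strand of the gene, from the Release 6 (dm6) genome of RefSeq, with CCAAT or its reverse complement ATTGG in capitals.
usp, upstream of RA, chrX:2041494-2041522, minus strand: atccgtgcttcaATTGGgagaccgatata
Eip75B, start of RC, chr3L:17999759-17999787, minus strand: gccaaaaaaaatCCAATgaaattgacact
Eip75B, intron upstream of RG, chr3L:18030065-18030093, minus strand: acgcttagattcATTGGcttaatataatt
br, intron upstream of RH, chrX:1605190-1605218, plus strand: ccagctattcctATTGGctaattactgcg
The pentamer overlapped the summit at usp, at the Eip75B intron and at br, and lay 1 bp from it at the start of Eip75B-RC. The usp site was in a 5′ UTR of usp and the Eip75B-RC site in a 5′ UTR of Eip75B.

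The next 5 sequences are the 201 bases around summits that the results turn on, written in the same way. Capitals mark CCAAT, the GAGA factor repeat GAGAG and the nuclear receptor half-site AGGTCA, on either strand.
Eip75B, intron downstream of RG, chr3L:18023817-18024017, minus strand: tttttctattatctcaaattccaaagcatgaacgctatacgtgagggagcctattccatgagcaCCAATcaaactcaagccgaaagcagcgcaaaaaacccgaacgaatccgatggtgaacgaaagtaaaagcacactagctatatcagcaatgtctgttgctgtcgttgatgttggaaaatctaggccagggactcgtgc
Hr39, first intron, chr2L:21237899-21238099, plus strand: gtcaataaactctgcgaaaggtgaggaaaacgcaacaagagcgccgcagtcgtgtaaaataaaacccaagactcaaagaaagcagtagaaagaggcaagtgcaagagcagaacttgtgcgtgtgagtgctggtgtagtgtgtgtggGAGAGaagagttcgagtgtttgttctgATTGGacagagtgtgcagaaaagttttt
Hnf4, upstream of RB, chr2L:8691393-8691593, minus strand: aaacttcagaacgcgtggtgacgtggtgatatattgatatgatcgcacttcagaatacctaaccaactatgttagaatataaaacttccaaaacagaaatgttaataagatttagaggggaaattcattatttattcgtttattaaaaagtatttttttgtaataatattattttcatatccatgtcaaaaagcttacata
ERR, upstream of RB, chr3L:8185740-8185940, minus strand: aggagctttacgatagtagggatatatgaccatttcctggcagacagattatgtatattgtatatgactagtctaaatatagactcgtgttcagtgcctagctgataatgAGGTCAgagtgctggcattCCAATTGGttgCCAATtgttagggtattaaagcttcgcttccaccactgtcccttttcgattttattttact
Hr4, upstream of RE and RF, chrX:1992049-1992249, plus strand: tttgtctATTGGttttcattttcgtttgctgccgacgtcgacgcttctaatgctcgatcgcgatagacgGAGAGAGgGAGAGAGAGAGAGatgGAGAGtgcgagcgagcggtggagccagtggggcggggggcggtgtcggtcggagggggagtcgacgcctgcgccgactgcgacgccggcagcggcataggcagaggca
The Hnf4 window, at one of the strongest promoter peaks of the 10 genes, held none of these motifs. The ERR window held 3 matches of CCAAT, overlaps included, 29 to 40 bp from the summit, and 1 AGGTCA. The stretch CCAATTGG in it matched on both strands. In the Hr4 window, CCAAT was 89 bp from the summit and GAGAG matched 8 times, overlaps included. The Eip75B window had 1 CCAAT, 32 bp from the summit, and the Hr39 window 1 CCAAT at 73 bp. A match is a description of the letters and not a bound site.

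A promoter was bound in 6 of the 10 genes: EcR, usp, Eip75B, Hr4, Hnf4 and ERR. Over all protein-coding genes the share was 30.6%. All 6 have at least 2 promoters, as do 9 of the 10 genes, and among all genes with at least 2 promoters 50.2% were bound. By promoter, 12 of 35 were bound (34.3%), against 28.5% of all 18922 promoters. The other 4 genes, Eip74EF, br, ftz-f1 and Hr39, had all their thresholded summits more than 500 bp from their own start sites. The summit farthest from a start site within the limit was 369 bp away, at ERR, and the nearest outside it was 749 bp away, at Hr39.

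**Figure D1:**
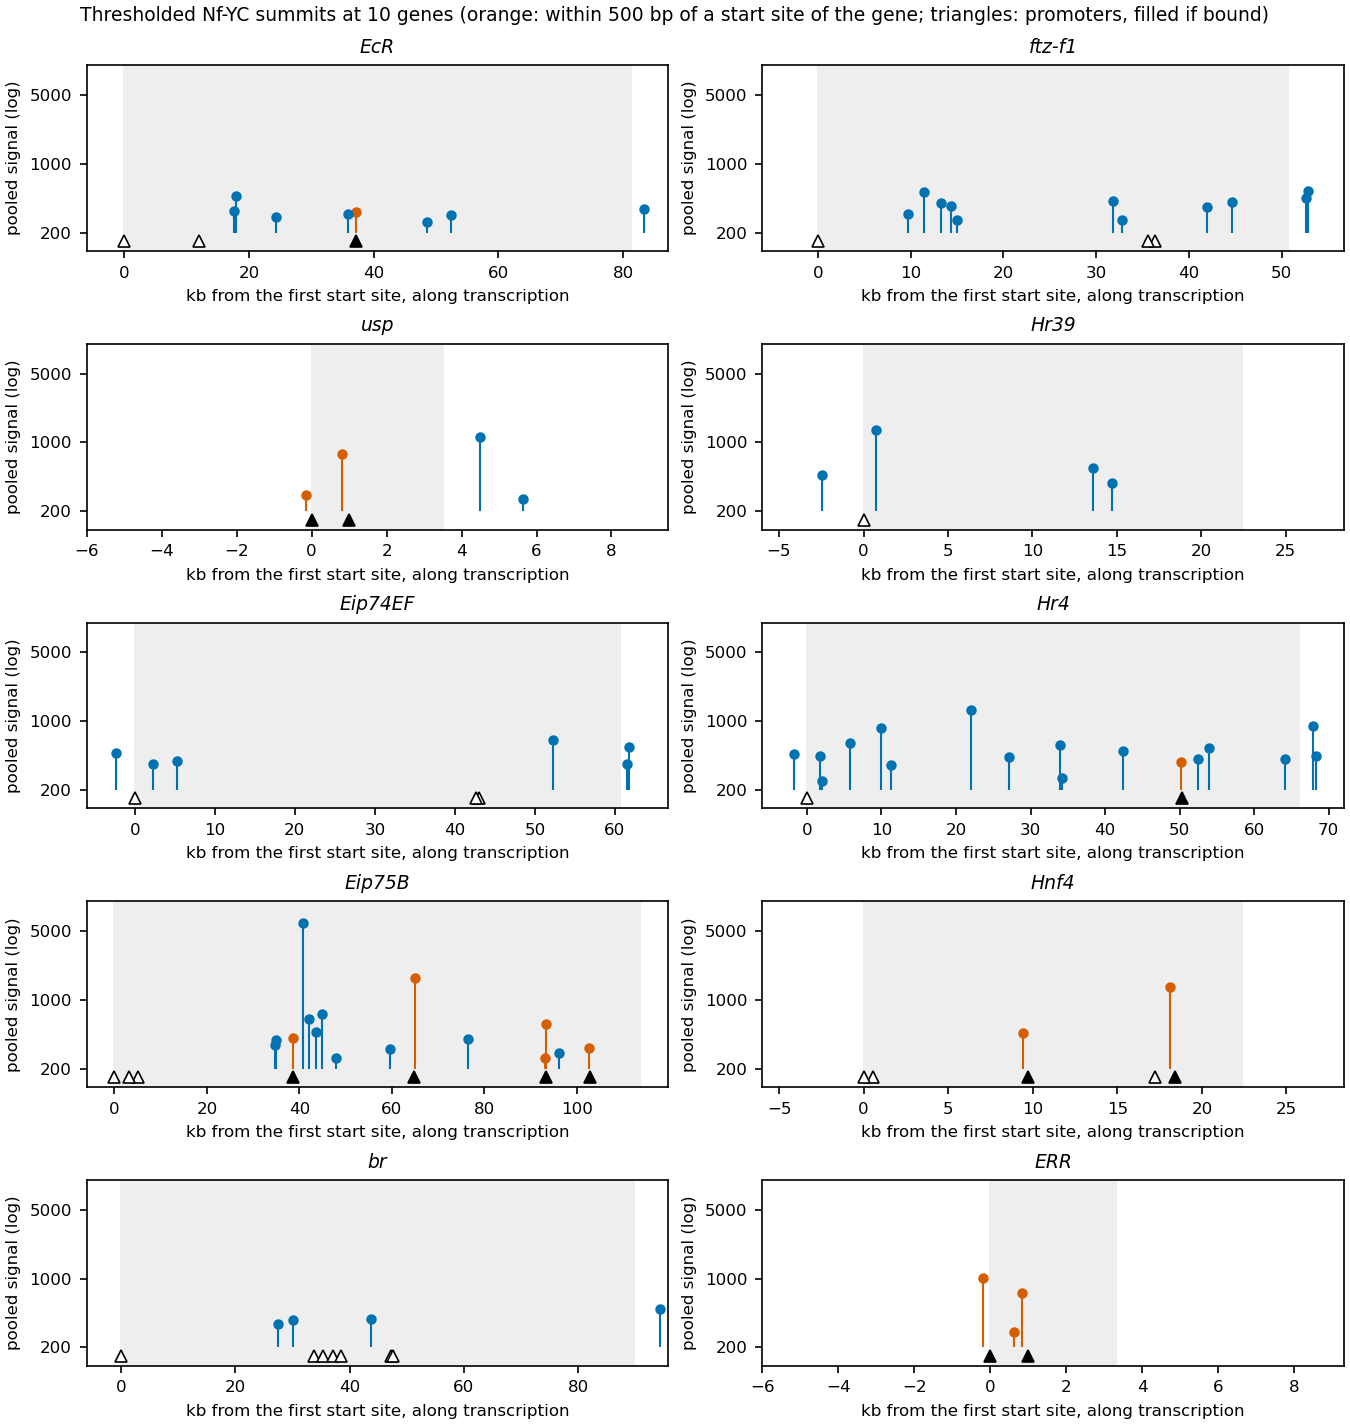
Thresholded summits at each of the 10 genes. The x axis is the distance in kb from the first start site along transcription, with the gene shaded, and the y axis is the pooled signal on a log scale. Orange points lie within 500 bp of a start site of the gene, blue points elsewhere, and triangles mark promoters, filled where bound. Eip75B held 15 summits and Hr4 held 17, while Hnf4 had 2 and both lay at promoters.

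The receptor gene EcR (chromosome arm 2R, 6087873 to 6169087, minus strand) had 8 thresholded summits, 7 of them in introns. One of its 3 promoters was bound, that of RB, RC and RG, with a summit 55 bp upstream at 6131977. The signal was 158 in replicate 1 (rank 5872) and 167 in replicate 2 (rank 3614), and replicate 3 had no summit within 100 bp. A weak summit of replicate 3 lay elsewhere within 500 bp of this promoter, with a signal of 16.1 and rank 29641. EcR-RA, the most upstream promoter, and the RD and RE promoter had summits only below the threshold, at pooled ranks of 10744 and 11338. The strongest EcR summit, in an intron 5928 bp downstream of RD and RE, was found in replicate 1 alone, with a signal of 182. A neighbouring summit in an overlapping peak, 5721 bp downstream, was found in all 3 lists with 97.2, 176 and 161. For 2 of the 8 EcR summits the start site of another gene was nearer, CG14589 for an intronic summit and Ars2 for the flank summit. Each replicate was also left out in turn, keeping a thresholded summit only if it was among the 7476 strongest of both other lists. By that stricter rule 2, 0 and 4 of the 8 EcR summits remained without replicates 1, 2 and 3.

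The partner gene usp (X, 2038798 to 2042311, minus strand) is short, and both of its promoters were bound. The summit 197 bp upstream of RA, at 2041509, had signals of 315, 222 and 223 in replicates 1, 2 and 3, with ranks of 2479, 2450 and 1565. Its mean was 254 ± 53.4 (SD, n = 3), and all 3 lists placed it above the RB summit. The RB summit lay 142 bp upstream of that start site, in an intron of CG4313, and had 123, 102 and 78.6 (mean 101 ± 22.4, n = 3). A start site of Actn, which encodes alpha-actinin, was equally near to it, so this peak cannot be assigned to usp alone. RA exceeded RB by 2.53-fold ± 0.326 (SD, n = 3 lists). The strongest summit within 5 kb of usp lay in an intron of Actn, 3501 bp downstream of the RA start site, with 460, 328 and 339. It was 1.48-fold ± 0.0323 (SD, n = 3) stronger than the RA peak. A start site of Actn was nearer than those of usp to this summit (1192 bp) and to the remaining flank summit (41 bp). Of the 4 summits, 3, 2 and 2 remained by the stricter rule without replicates 1, 2 and 3.

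Among the early response genes, Eip75B (3L, 17950953 to 18064696, minus strand) held the strongest peak of the 10 genes. Eip75B encodes a haem-binding nuclear receptor. Its peak lay in an intron 2115 bp downstream of the RG start site, with the summit at 18023917. The signal was 2980, 1984 and 1081 in replicates 1, 2 and 3, and the rank was 243, 255 and 310. The 3 lists thus differed in signal but placed it at nearly the same rank, and it was 261 in the thresholded set. The mean was 2015 ± 950 (SD, n = 3). This intronic peak was stronger than the strongest Eip75B promoter peak in every list, by 3.55-fold ± 0.191 (SD, n = 3).

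Eip75B had 7 promoters, of which 4 were bound. The strongest was that of RC, with a summit 51 bp downstream of the start site at 17999770. Its signals were 791, 580 and 312 (ranks 873, 813 and 1062) and its mean was 561 ± 240 (SD, n = 3). At the RA promoter the stronger of 2 summits, 107 bp downstream, had 262, 201 and 140 (mean 201 ± 61.2, n = 3). The RG summit, 140 bp upstream, had 112, 187 and 111. The RD summit, 334 bp upstream, had 168, 88.8 and 51.9. RC was above RA, RG and RD in 3 of 3 lists, with a mean ratio of 2.71 ± 0.420 over RA (SD, n = 3). RA was above RG and RD in 3 of 3 lists, by 1.56 ± 0.681 over RG (SD, n = 3), a ratio within 1 SD of equality. RG was above RD in 2 of 3 lists only, so these do not differ beyond their spread. The order was not tested, since a sign test over 3 lists cannot reach the usual threshold.

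The 3 most upstream promoters of Eip75B, of RB, RE and RF, lay together at the 5′ end of the gene and the nearest thresholded summit was 29517 bp from RB. The pooled list also had none within 500 bp of them, and single weak summits appeared in replicate 3 alone, at RE (rank 12424) and RF (rank 27273). The 15 summits of the gene all lay inside it, 13 in introns and 2 in a 5′ UTR. Merging overlapping peaks left 13 separate regions. By the stricter rule 11, 11 and 9 remained without replicates 1, 2 and 3.

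**Figure D2:**
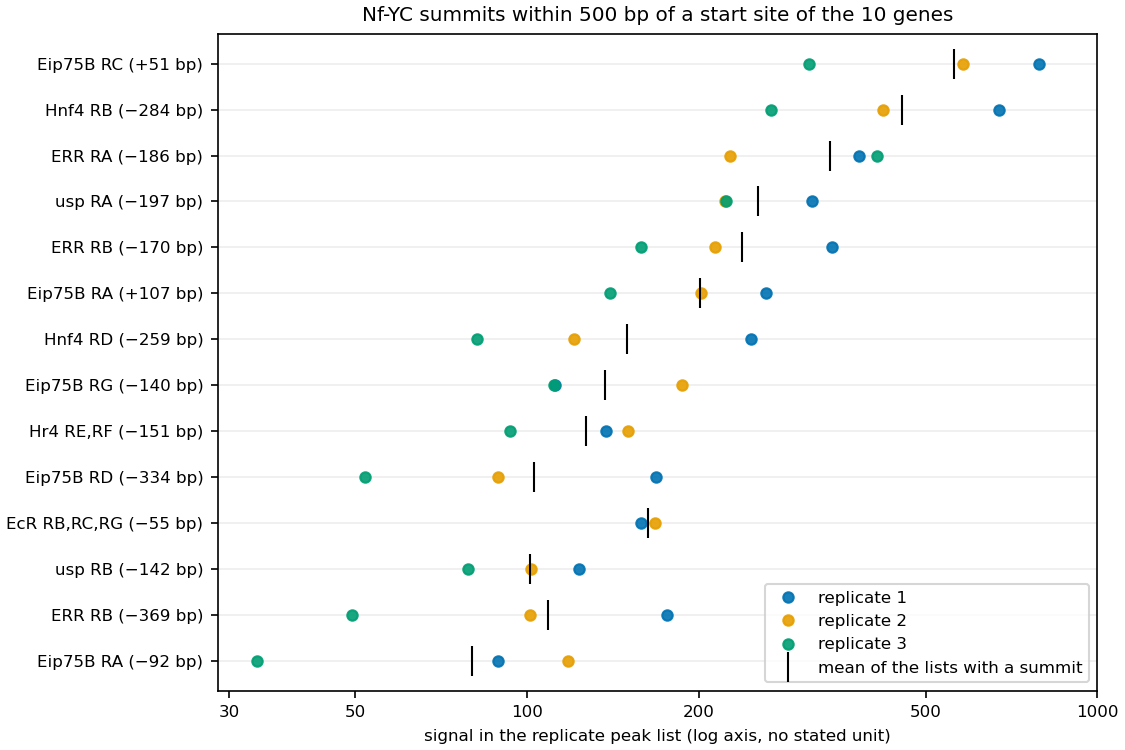
Signals of the 14 summits within 500 bp of a start site of the 10 genes. Each row is a summit, labelled with its gene, transcripts and distance upstream (−) or downstream (+), points are the replicate lists on a log axis without a stated unit, and bars are means of the lists with a summit. The Eip75B RC summit had the highest mean, 561, and the EcR summit had no point for replicate 3.

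Eip74EF (3L, 17558672 to 17619325, minus strand), which encodes an ETS-domain transcription factor, had 6 thresholded summits and 0 of 3 promoters bound. Its strongest summit lay in an intron 9237 bp downstream of RD, with signals of 275, 212 and 141 and ranks of 2930, 2604 and 2708 (mean 209 ± 66.9, SD, n = 3). That window held the extended receptor half-site AAGGTCA, the only one among the 74. A further 2 intronic summits lay 2329 and 5326 bp downstream of the start site of RA, RC and RE. The other 3 were in the flanks, 23 and 177 bp from a start site of CycT and 34 bp from that of Vps60. At the promoters themselves, summits below the threshold were present in all 3 lists. The best pooled rank was 9327 near RB and RD, which share 1 weak peak, and 9813 at RA, RC and RE.

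br (X, 1575132 to 1664869, plus strand) encodes BTB zinc-finger factors and had the fewest summits for its length among the 10 genes. It had 4 within the gene of 89.7 kb and its flanks, or 0.401 per 10 kb. That was below the 0.558 over the 6 arms but above the median of 0.305 for genes of 50 to 130 kb with flanks. None of its 7 promoters was bound. Of the 7, 6 had no summit within 500 bp in any of the 3 replicate lists, including the promoter shared by 9 transcripts from RA to RR. RH was the exception, with weak summits in all 3 lists (ranks 10744, 19945 and 20992). The 3 summits inside br lay in introns, 6336 and 3666 bp upstream of RH and 3456 bp upstream of RS. Their signals were close, with means of 124 ± 87.9, 128 ± 52.0 and 129 ± 57.6 (SD, n = 3 each). All 3 were also inside Mur2B, a gene within br, and the third lay nearer to the Mur2B start site (697 bp). The fourth was in the flank, 109 bp from a start site of CG3740.

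Hr4 (X, 1941940 to 2007956, plus strand), a nuclear receptor of the ecdysone cascade, had the most summits, 17, at 2.24 per 10 kb. Only 6 protein-coding genes had more summits. Some of the 17 lay in overlapping peaks, and merging those peaks left 14 separate regions. Of the 17, 14 lay inside the gene, spread from 1770 bp downstream of its first start site into the 3′ UTR. The strongest was in an intron 21990 bp downstream of that start site, with 585, 371 and 343 in replicates 1, 2 and 3 and ranks of 1199, 1318 and 951. Its mean was 433 ± 133 (SD, n = 3). A second intronic summit, 9983 bp downstream, had 375, 332 and 134. The bound promoter was the internal one, of RE and RF, with a summit 151 bp upstream. There the signals were 137, 150 and 93.3 (mean 127 ± 29.8, n = 3). The intronic peak exceeded it in every list, by 3.47-fold ± 0.914 (SD, n = 3). The first promoter, used by 7 transcripts from RC to RK, was not bound, and replicate 3 had no summit there. Of the 17 summits, 10, 11 and 12 remained without replicates 1, 2 and 3. For 4 of the 17 a start site of CG3587, PIG-K or east was nearer than those of Hr4.

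ftz-f1 (3L, 18750607 to 18801309, minus strand) encodes the nuclear receptor that partners the pair-rule protein Ftz and later confers competence to respond to ecdysone. It had 11 summits, 9 of them in introns, and none within 500 bp of its 3 promoters. Of these, 5 lay in a stretch of the long intron 9677 to 15057 bp downstream of RB, within the noncoding gene lncRNA:CR45939 as well. The strongest of the 5, 11481 bp downstream, had 233, 144 and 150 (mean 176 ± 49.5, SD, n = 3). The summit 13312 bp downstream lay in a run of GAGA repeats with 19 matches of GAGAG. At the RB promoter, replicate 1 (signal 170, rank 5433) and replicate 2 (238, rank 2256) had summits, but replicate 3 and the pooled list had none. At RC and RD all 3 lists had summits, below the threshold, with a best pooled rank of 8992. The 2 flank summits were 70 bp from a start site of Nufip and 47 bp from that of Atg3, an autophagy gene. Without replicates 1, 2 and 3, 4, 5 and 8 of the 11 summits remained.

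Hr39 (2L, 21237250 to 21259675, plus strand), a nuclear receptor related to ftz-f1, has 1 promoter and 4 summits. The strongest lay in the first intron, 749 bp downstream of the start site, at 21237999. It had 639, 531 and 183 (mean 451 ± 238, SD, n = 3), with ranks of 1089, 888 and 2006. Replicate 3 was lower than the others in rank as well as in signal. The next, 13609 bp downstream, showed the same pattern with 337, 153 and 73.3 (ranks 2260, 4076 and 5615). So did the flank summit, with ranks of 3332, 4155 and 5968. The summit 14721 bp downstream did not, with 146, 94.9 and 145 (ranks 6420, 7282 and 2623). Within 500 bp of the start site there were summits in replicate 2 (rank 6547) and replicate 3 (rank 3016) and none in replicate 1. With a window of 1000 bp, Hr39 counted as bound. All 4 summits remained without any 1 of the replicates. For 3 of the 4 the start site of another gene was nearer than that of Hr39. It was CG31626 for the flank summit, 2487 bp upstream, and l(2)k14505 for the intronic summits 13609 and 14721 bp downstream.

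Hnf4 (2L, 8687226 to 8709611, minus strand), a receptor known for control of fatty acid catabolism, had 2 summits and both were at promoters. The summit 284 bp upstream of RB had 673, 420 and 267 (mean 453 ± 205, SD, n = 3) and ranks of 1043, 1136 and 1271. The summit 259 bp upstream of RD had 247, 121 and 81.5 (mean 150 ± 86.3, n = 3). RB exceeded RD in 3 of 3 lists, by 3.16-fold ± 0.388 (SD, n = 3). The other 3 of its 5 promoters, of RF, RA and RE, were not bound. Both Hnf4 summits remained without any 1 of the replicates, and neither window held CCAAT.

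ERR (3L, 8183361 to 8186671, minus strand), the estrogen-related receptor that is known to switch on glycolytic genes in the embryo, was bound at both promoters. The summit at RA, 186 bp upstream at 8186857, coincided with a start site of the autophagy gene Atg18a (0 bp), so it cannot be assigned to ERR alone. It had 381, 227 and 411 in replicates 1, 2 and 3 (mean 340 ± 98.6, SD, n = 3), with ranks of 1978, 2389 and 776. This was the only promoter summit of the 10 genes at which replicate 3 had the highest signal. The RB promoter had 2 summits, 170 and 369 bp upstream. The nearer had 342, 214 and 158 (mean 238 ± 94.5, SD, n = 3). The farther had 176, 101 and 49.3. RA was above RB in 3 of 3 lists, by 1.59 ± 0.870 (SD, n = 3), a ratio that ranged from 1.06 to 2.59.

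Ordered by the pooled signal of the strongest promoter summit, the bound genes ran Eip75B (1676), Hnf4 (1345), ERR (1024), usp (763), Hr4 (381) and EcR (324). Eip75B was above Hnf4, ERR above usp and usp above Hr4 in 3 of 3 lists. Hnf4 was above ERR in 2 of 3 lists. EcR was above Hr4 in both lists that had a summit at each, the reverse of their pooled order.

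**Figure D3:**
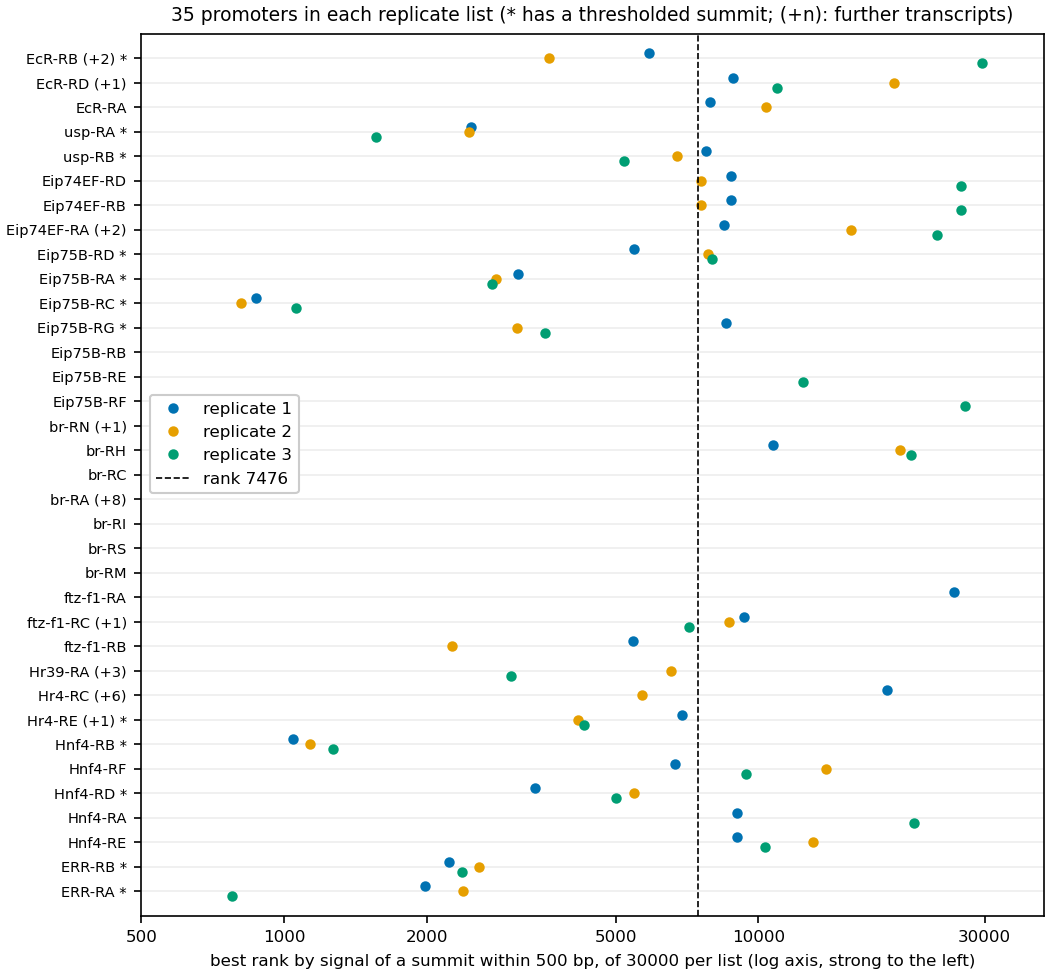
Best rank by signal of any summit within 500 bp of each of the 35 promoters, in each replicate list of 30000 peaks (log axis, stronger to the left). Rows are promoters named by their first transcript, asterisks mark those with a thresholded summit, and the dashed line is rank 7476. The br promoters other than RH have no point in any list.

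Of the 23 promoters without a thresholded summit, 8 had a summit in each of the 3 replicate lists (34.8%), against 14.5% of all such promoters. Of the rest, 5 had one in 2 lists, 3 in 1 list and 7 in none, and 6 of those 7 were br promoters. The 8 were the RD and RE promoter of EcR, all 3 of Eip74EF, br-RH, the RC and RD promoter of ftz-f1, and RF and RE of Hnf4. The RB and RD promoters of Eip74EF share 1 weak peak, which was counted at both. With the whole pooled list 23 of the 35 promoters had a summit, and no share over all promoters is given for that list. By gene, all 10 then counted as bound, as did 46.1% of all protein-coding genes.

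Most of the 74 summits were in introns (58). Of the others, 8 were intergenic, 6 in a 5′ UTR, 1 in a 3′ UTR and 1 in an exon of a noncoding gene. For 20 of them the start site of another protein-coding gene was nearer than that of the member, and 14 of these were in the flanks. Of the 15 flank summits, 12 lay within 500 bp of a start site of another gene. Neighbours with a start site this near to a flank summit included CycT, Vps60, Atg3, Ars2 and PIG-K, so such a peak cannot be assigned to the member.

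Summits were denser at these genes than over the arms, and few were among the strongest. They came to 1.21 per 10 kb over the 10 genes and flanks, against 0.558 over the 6 arms. Only 9 of the 74 (12.2%) were in the strongest 25% of the thresholded set, and their median pooled signal was 411 against 456 for the set. Longer genes can hold more peaks. Among 405 genes whose length with flanks was 50 to 130 kb, the median was 2 summits (quartiles 1 and 5), and the 6 members of that length had 4 to 17. Among 1516 genes of 20 to 50 kb the median was also 2, and Hr39 and Hnf4 had 4 and 2. Among 11968 genes of 10 to 20 kb it was 1, and usp and ERR had 4 and 3. The genes were not compared by a test, and peaks within 1 gene are not independent.

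**Figure D4:**
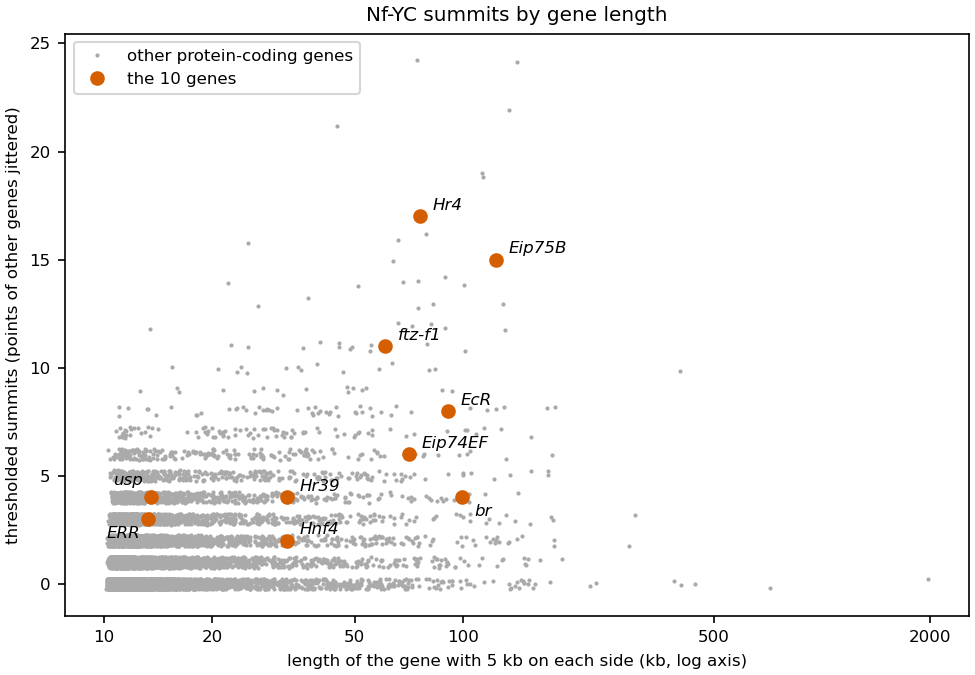
Thresholded summits inside each protein-coding gene or within 5 kb, against the length of the gene with both flanks (kb, log axis). Grey points are other genes, jittered vertically, and orange points are the 10 genes. Hr4 (17), Eip75B (15) and ftz-f1 (11) lie high for their length, while br (4) lies among the bulk of genes.

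Of the 74 summits, 61 had a summit within 100 bp in all 3 lists (82.4%), close to the 80.9% over all thresholded summits. With matching within 50 bp, 33 of the 74 did, and no share over all thresholded summits is given at that distance. A further 11 were in 2 lists and 2 in 1 list. Replicate 3 lacked 8, replicate 2 lacked 6 and replicate 1 lacked 1. Replicate 1 had the higher signal at 62 of the 65 summits it shared with replicate 3. For the summits in all 3 lists the SD was 40.6% of the mean at the median, from 2.34% to 92.4%. Across the summits shared by a pair, Spearman's rho was 0.646 between replicates 1 and 2 (67 summits), 0.548 between 1 and 3 (65) and 0.581 between 2 and 3 (62). These summits were selected from a pool of the same reads and share libraries, so the values are descriptions.

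CCAAT within 100 bp of the summit was present at 25 of the 74 peaks (33.8%), against 38.1% of all thresholded summits and 33.4% of windows of the same length at the start sites of all promoters. Hr4 accounted for 9 of the 25 and Eip75B for 4, and the rest had 0 to 2 each. Of the 9 summits in the strongest 25% of the set, 5 held it, as did 46.2% of all summits in that class. Of the 65 weaker ones 20 did (30.8%), against 35.4% of all weaker summits. Of the 14 promoter summits 4 did (28.6%), against 37.1% of all summits within 500 bp of a start site of a protein-coding gene. Among the 6 genes with a bound promoter, the strongest promoter summit held CCAAT at usp, Eip75B and Hr4 and not at Hnf4, ERR and EcR. GAGAG was present at 29 of 74 (39.2%), against 31.7% of all summits and 25.04% of promoter windows.

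Of the sequences read by nuclear receptors, only the exact half-sites AGGTCA and AAGGTCA were sought, and neither paired nor inexact copies. AGGTCA was present in 4 of 74 windows (5.41%), against 3.53% of all summits, at Eip74EF, Eip75B, ftz-f1 and ERR. The extended form AAGGTCA, read by receptors such as ftz-f1 and ERR, was in 1 (1.35% against 1.28%). The replication-related element TATCGATA was in 3 (4.05% against 4.13%), all in flanks and beside start sites of CycT, CG3740 and Atg3. The palindromic E-box CACGTG was in 2 (2.70% against 2.42%), both in ftz-f1 introns. These searches covered both strands and allow overlap between AGGTCA and AAGGTCA. The median GC content of the windows was 42.3%, against 40.8% for all summits.

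**Figure D5:**
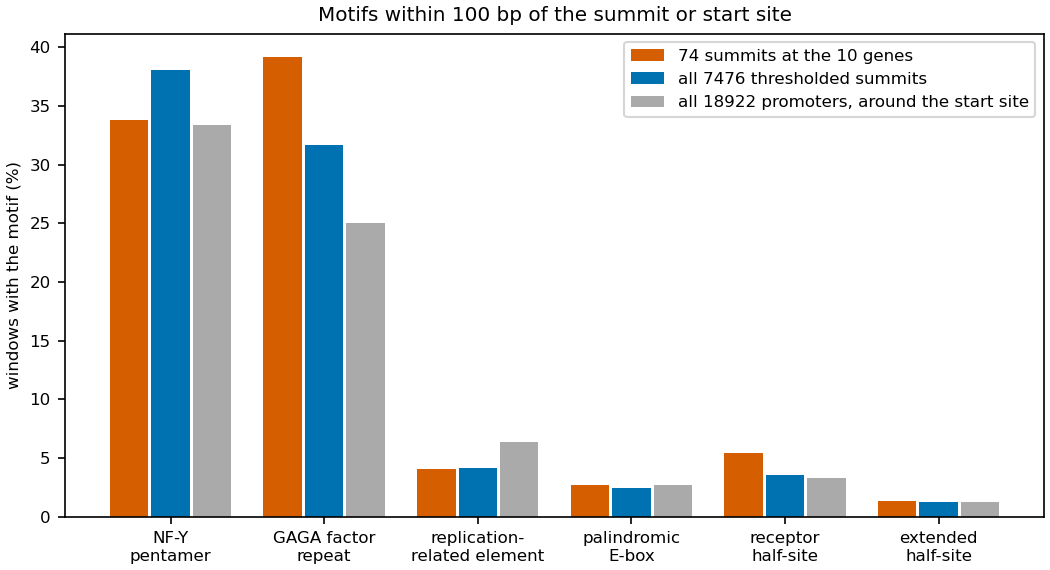
Share of 201 bp windows that hold each motif on either strand, in percent, for the 74 summits of the 10 genes (orange), all 7476 thresholded summits (blue) and the start sites of all 18922 promoters (grey). The NF-Y pentamer was in 33.8%, 38.1% and 33.4% of windows, and the GAGA factor repeat in 39.2%, 31.7% and 25.04%.

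Other genes of the pathway gave the surroundings of these 10. Of 13 further nuclear receptor genes, 9 had a bound promoter. Their strongest peaks were at svp, Hr51, tll and kni, at ranks 115, 198, 577 and 744 of the set. These are known for roles in neural or segmental patterning. Each had a higher pooled signal than any promoter peak of the 10 genes. Those of svp (13426) and Hr51 (8070) also exceeded the intronic peak of Eip75B (5972). Over the replicates svp had 4483 ± 1408 and Hr51 2701 ± 1567 (SD, n = 3 each). At Hr96 the summit was nearer to a start site of EMC6 (79 against 139 bp), and at Hr3 one of CG46321 was equally near (156 bp). Of 15 further ecdysone response genes, 5 were bound, at E23, Eip63E, vri, crol and ImpL2, with the strongest at the transporter gene E23 (864 ± 342, n = 3). At ImpL2 a start site of CG46460 was equally near to the summit (46 bp). Eip93F, Cyp18a1 and ImpE1 had no thresholded summit within 5 kb.

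Of 11 matched genes of ecdysone synthesis, 3 were bound, shd, mld and Npc1a. Within 5 kb 4 had a summit and 7 had none, where 56.5% of all protein-coding genes had at least 1. The 7 included nvd, spok, dib and sad, which encode enzymes of the pathway. Beside the 3 bound genes, spo had a summit within 5 kb. shd, which encodes the enzyme of the last step, had 221 ± 43.0 (SD, n = 3), with a summit 152 bp from its start site. Of 9 matched genes for cofactors and transport, 5 were bound. They were the coactivator gene tai, the methyltransferase gene trr, bon, the ecdysone importer gene Oatp74D and the chaperone gene Hsp83. At tai and trr the start site of another gene was nearer to the summit, CG9586 (125 against 139 bp) and mRpL16 (81 against 225 bp). Against the background of 30.6% of all genes, the bound shares of these 4 lists were 69.2%, 33.3%, 27.3% and 55.6%, and no test was made over them.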

How the data were processed

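Per the labels, chromatin from 3 biological replicates of embryos (0 to 18 hours) was precipitated through the GFP tag. Per the deposited notes, the authors called peaks for each replicate and for the pooled replicates against 1 shared control alignment, and thresholded them by the irreproducible discovery rate. Neither the aligner nor the caller nor the threshold is named in the sources read. The deposited signal value is a score without a stated unit. The deposited −log10 q-value was not used. Depth is unknown, so no interval or floor that needs it is given.

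The files use dm6, and coordinates were read on RefSeq's Release 6 sequence with Ensembl release 115 (BDGP6.54). All are 1-based. Summits were matched between lists within 100 bp, and SDs are over lists with a match. Motifs were searched within 100 bp of summits. Counting was done with Python 3.11.15, numpy 2.4.6 and pandas 2.3.3, and was tested on planted summits and motifs.

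The members and gene lists were chosen with earlier results of these data known. All 10 members and every promoter are named. Neighbours are named where nearer to a summit, and up to 4 genes with the strongest promoter peaks from each other list. Hr96, Hr3, ImpL2, Eip93F, Cyp18a1, ImpE1, nvd, spo, spok, dib, sad and bon were named after their values were seen. Windows of 201 bases are printed in place of the planned 61, without UTR bases, and 5 windows were left out. phm and Med24 had no match in the annotation and are not reported.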

Additional observations from a re-analysis of the deposited data

How the results depend on the processing

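Counts cannot reverse in sign, so only their size was compared. Of 41 alternatives on the counts of the report, 28 kept a count within 1.5 times of its main value and 13 did not. For single genes, a count or signal was judged changed in 28 of 100 alternatives. With the stronger 50% of the thresholded peaks, bound genes fell from 6 to 4, where 17.7% of all genes then counted as bound. Bound promoters fell from 12 to 7, summits from 74 to 30 and summits with CCAAT from 25 to 10, since fewer peaks are counted. With the whole pooled list these were 23, 326 and 100, and bound genes rose from 6 to 10, where 46.1% of all genes then counted as bound. Leaving out 1 replicate kept 4652 to 5321 peaks of 7476 and gave 5 to 6 bound genes, 8 to 10 bound promoters, 44 to 52 summits and 14 to 20 with CCAAT, where 21.3% to 23.6% of all genes counted as bound. With CCAAT sought within 50 bp, 15 summits held it, and within 10 bp, a distance chosen after the data were seen, 4 did; both windows are smaller by construction. With summits matched within 50 bp, 33 were in all 3 lists in place of 61, and 62 to 67 were in the lists that remained when 1 replicate was left out. At usp-RA the matched signal was then 315, from replicate 1 alone. For these alternatives no share over all promoters or all summits is given, apart from CCAAT within 10 bp. Only the counts of bound genes have a background for each set of peaks. Other windows, flanks, merging distances and transcript sets stayed within 1.5 times, except that Hnf4 had 4 summits in place of 2 with flanks of 10 kb. No paired analysis was possible because there is 1 group. Depth limits cannot be stated, since the files hold no counts.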
